A study of Mus musculus with 17 samples.

Results

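The genes described here are Fgf8, which encodes a secreted fibroblast growth factor (FGF), and 9 genes whose transcription follows FGF signalling: Spry1, Spry2, Spry4, Dusp4, Dusp6, Etv1, Etv4, Etv5 and Il17rd. They were chosen by name as a known set, with earlier results of these data already seen, and all 10 were found among the 41709 gene symbols of the deposited table. RNA was sequenced from 17 single whole mouse embryos of the C57BL/6J strain. At embryonic day 9.5 (E9.5), 4 Disp1_CS_INDEL embryos, which carried the CS allele from Disp1CS/+ dams and the INDEL allele from Disp1INDEL/+ sires, were set against 4 Disp1_WT embryos. At E8.5, 5 embryos homozygous for Myo10m1J from heterozygous intercrosses (Myo10_m1J) were set against 4 Myo10_WT embryos. Disp1 encodes a transporter that releases Hedgehog ligands from the cells that make them, and Myo10 encodes a filopodial myosin. Litters are not labelled. All 10 genes passed the filter on low values, a TPM (transcript abundance corrected for length, as a share of a fixed total) of at least 1 in at least 4 libraries, in every comparison.

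FGF ligands bind receptor tyrosine kinases and, through Ras, Raf and MEK, activate the kinase ERK. In the mouse embryo at these stages Fgf8 is transcribed in restricted places that include the tail bud and presomitic mesoderm, the isthmus between midbrain and hindbrain, the rostral forebrain, the branchial arches and the ridge of the limb bud. Activated ERK induces the ETS transcription factors Etv1, Etv4 and Etv5 and a layer of feedback inhibitors. Sprouty proteins act on the path to ERK below the receptors, Dusp6 is a cytoplasmic and Dusp4 a nuclear phosphatase of mitogen-activated protein kinases, and Il17rd (Sef) is a membrane antagonist of the pathway. These transcripts are therefore widely used as a readout of FGF signalling.

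ERK also acts on transcription by relieving the repressor Capicua, which binds octamers with the core TGAATG. RefSeq promoter windows of the build GRCm38.p6 were matched for 6 of the 10 genes, giving 8 windows of 250 bases before a start. The core, searched on both strands, was found in 2 of the 8 windows, and in 10.88% of all 32851 such windows. The full octamer was not searched, so a match to the core may lack the rest of it. Both windows are shown to let the spacing of the matches be seen, with the core or its reverse complement CATTCA in capitals.
Dusp6, chr10:99262981-99263230, + strand: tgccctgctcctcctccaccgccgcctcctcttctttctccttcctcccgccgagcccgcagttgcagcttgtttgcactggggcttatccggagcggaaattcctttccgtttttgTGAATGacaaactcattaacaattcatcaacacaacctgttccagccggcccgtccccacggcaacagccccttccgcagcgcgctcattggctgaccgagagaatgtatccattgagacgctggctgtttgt
Etv5, second start, chr16:22438369-22438618, − strand: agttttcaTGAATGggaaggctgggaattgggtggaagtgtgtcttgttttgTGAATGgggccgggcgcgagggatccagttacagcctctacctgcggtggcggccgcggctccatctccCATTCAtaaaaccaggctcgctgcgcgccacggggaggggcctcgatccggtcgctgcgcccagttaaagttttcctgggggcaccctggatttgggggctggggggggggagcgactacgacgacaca
The Dusp6 window held 1 match, which began 133 bases before the start. The Etv5 window held 3, which began 242, 198 and 129 bases before the start. At least 3 matches were present in 43 of all windows (0.1309%), a cut taken from the count in this Etv5 window itself. The motif was chosen after the expression values were seen, and a match describes the letters of the window and is not evidence of binding.

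Some features of the libraries bear on every value below. Structural RNAs (7SL, 7SK, RMRP and RPPH1) made up 32.2 to 44.5% of the TPM total in Myo10_m1J libraries and 29.8 to 36.9% in Myo10_WT libraries, but at most 0.0132% in Disp1_CS_INDEL and 0.0113% in Disp1_WT libraries. Because TPM is a share of a fixed total, values were also divided by median-of-ratios size factors, and are then called scaled TPM. Some transcripts of the tail bud were nearly missing from 2 E9.5 embryos, while others were not. Msgn1, a regulator of presomitic mesoderm, was at 0.0 TPM in Disp1_CS_INDEL replicate 1, against 11.9, 18.6 and 12.6 TPM in the others of that group. It was at 0.104 TPM in Disp1_WT replicate 3, against 17.9, 15.6 and 17.8 TPM in the others of that group. Wnt3a, also a tail bud marker, was at 13.25 TPM in Disp1_CS_INDEL replicate 1 and 13.17 TPM in Disp1_WT replicate 3. The other E9.5 embryos had 13.6 to 15.31 TPM of Wnt3a. Sp5, another such marker, was at 18.07 TPM in Disp1_CS_INDEL replicate 1, the highest of its group, and at 13.16 TPM in Disp1_WT replicate 3, the lowest of its group. At E8.5, Myo10_WT replicate 1 had 4.26 TPM of Msgn1, against 39.7, 37.0 and 29.1 TPM in the other Myo10_WT embryos. The 17 tail bud and presomitic mesoderm markers summed to 117 TPM in Disp1_CS_INDEL replicate 1 and 104 TPM in Disp1_WT replicate 3, against 232 to 303 TPM in the other E9.5 embryos, and to 186 TPM in Myo10_WT replicate 1, against 537 to 696 TPM in the other Myo10_WT embryos and at least 273 TPM in Myo10_m1J embryos. The 11 isthmus and midbrain-hindbrain markers summed to 124 TPM in Myo10_WT replicate 1, against 62.8 to 76.9 TPM in the other Myo10_WT embryos. The 10 yolk sac endoderm markers summed to 950.3 TPM in Disp1_WT replicate 3, against 40.29 to 85.68 TPM in the other E9.5 embryos. At E8.5 they summed to 871.4 to 2738 TPM in Myo10_WT embryos and 783.8 to 2344 TPM in Myo10_m1J embryos. The 7 decidua and trophoblast markers summed to 740.4 TPM in Disp1_WT replicate 3 and to 220.6 TPM in Myo10_m1J replicate 2. Myo10 averaged 3.61 ± 0.885 TPM in Myo10_m1J (SD, n = 5) and 25.8 ± 6.02 TPM in Myo10_WT (SD, n = 4). Disp1 averaged 14.3 ± 1.99 TPM in Disp1_CS_INDEL and 17.5 ± 1.74 TPM in Disp1_WT (SD, n = 4 each), a difference that did not pass the test. In whole embryos, fewer cells of a type and less RNA per cell cannot be told apart.

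Fgf8 lay near 20 TPM in all 4 groups. It measured 19.7, 23.7, 22.2 and 23.5 TPM in Disp1_CS_INDEL embryos, against 23.0, 22.1, 17.7 and 18.0 TPM in Disp1_WT embryos. At E8.5 it measured 19.6, 23.1, 23.9, 13.1 and 22.0 TPM in Myo10_m1J embryos, against 15.5, 28.2, 17.9 and 27.1 TPM in Myo10_WT embryos. Both pairs of groups overlapped, and the widest spread was among the Myo10_WT embryos. Fgf8 made up 23.5 ± 0.857% of the summed TPM of Fgf8 and the other 21 Fgf genes in Disp1_CS_INDEL, 19.9 ± 2.20% in Disp1_WT (SD, n = 4 each), 26.8 ± 2.72% in Myo10_m1J (SD, n = 5) and 25.9 ± 4.51% in Myo10_WT (SD, n = 4).

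Of the Sprouty genes, Spry2 was the most abundant and Spry4 the least in every group mean. Spry2 measured 46.9, 42.0, 37.2 and 34.9 TPM in Disp1_CS_INDEL embryos, against 39.7, 40.6, 36.6 and 35.6 TPM in Disp1_WT embryos. In Myo10_m1J it measured 34.9, 37.5, 37.7, 22.8 and 35.2 TPM, against 50.9, 38.9, 32.1 and 33.7 TPM in Myo10_WT. The highest Spry2 value was in replicate 1 of Disp1_CS_INDEL, replicate 2 of Disp1_WT, replicate 3 of Myo10_m1J and replicate 1 of Myo10_WT. Spry1 measured 36.1, 34.6, 31.8 and 31.8 TPM in Disp1_CS_INDEL, against 33.5, 32.5, 30.7 and 29.8 TPM in Disp1_WT. It measured 15.9, 21.9, 19.8, 16.8 and 15.6 TPM in Myo10_m1J, against 26.5, 17.8, 15.9 and 22.3 TPM in Myo10_WT. Every E9.5 embryo was above every E8.5 embryo for Spry1 TPM. Spry4 measured 9.31, 11.7, 8.07 and 10.3 TPM in Disp1_CS_INDEL, against 11.3, 10.7, 7.87 and 8.44 TPM in Disp1_WT. It measured 11.04, 12.6, 12.2, 7.26 and 15.98 TPM in Myo10_m1J, against 11.4, 17.4, 13.2 and 13.2 TPM in Myo10_WT. Mutant and wild-type ranges overlapped for all 3 Sprouty genes.

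The 2 phosphatase genes exchanged rank between the ages. Dusp4 measured 47.6, 50.3, 51.3 and 50.3 TPM in Disp1_CS_INDEL embryos, against 50.1, 52.3, 36.4 and 45.4 TPM in Disp1_WT embryos. It measured 90.5, 99.9, 95.9, 67.4 and 103 TPM in Myo10_m1J, against 89.4, 121, 95.4 and 111 TPM in Myo10_WT. No E9.5 value of Dusp4 reached the lowest E8.5 value. Dusp6 measured 93.4, 96.5, 76.6 and 88.8 TPM in Disp1_CS_INDEL, against 89.6, 88.6, 71.1 and 75.1 TPM in Disp1_WT. It measured 53.7, 86.5, 74.6, 61.7 and 60.3 TPM in Myo10_m1J, against 79.3, 78.7, 54.1 and 76.8 TPM in Myo10_WT. Dusp6 accounted for 63.9 ± 2.89% of the summed TPM of the pair in Disp1_CS_INDEL, 63.9 ± 1.69% in Disp1_WT (SD, n = 4 each), 42.4 ± 5.08% in Myo10_m1J (SD, n = 5) and 40.9 ± 4.53% in Myo10_WT (SD, n = 4). This share is not altered by any scaling of a whole library, and no value of one age overlapped those of the other.

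Among the ETS factors Etv5 led, Etv4 followed and Etv1 was near the filter. Etv5 measured 51.3, 59.5, 54.7 and 61.2 TPM in Disp1_CS_INDEL embryos, against 60.7, 57.8, 45.8 and 57.4 TPM in Disp1_WT embryos. It measured 52.3, 61.9, 55.6, 39.7 and 62.2 TPM in Myo10_m1J, against 63.6, 66.7, 57.1 and 59.9 TPM in Myo10_WT. Etv5 was the steadiest ETS gene between groups in TPM. Etv4 measured 16.9, 26.0, 22.1 and 23.2 TPM in Disp1_CS_INDEL, against 24.9, 21.4, 14.9 and 23.2 TPM in Disp1_WT. It measured 25.4, 27.0, 27.7, 16.04 and 37.4 TPM in Myo10_m1J, against 12.99, 40.9, 33.0 and 32.4 TPM in Myo10_WT. Of the Myo10_WT embryos, replicate 1 stood below the others. Etv1 measured 2.63, 2.65, 1.98 and 2.48 TPM in Disp1_CS_INDEL, against 2.38, 2.31, 2.08 and 2.05 TPM in Disp1_WT. It measured 1.53, 1.13, 1.03, 0.885 and 1.63 TPM in Myo10_m1J, against 1.53, 1.59, 1.19 and 1.29 TPM in Myo10_WT. Il17rd, the membrane antagonist, measured 22.1, 24.9, 22.9 and 21.8 TPM in Disp1_CS_INDEL, against 22.4, 24.7, 18.0 and 20.6 TPM in Disp1_WT. It measured 17.2, 23.5, 23.3, 17.3 and 21.3 TPM in Myo10_m1J, against 22.3, 25.8, 18.3 and 23.4 TPM in Myo10_WT.

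TPM corrects for transcript length, so levels can be ordered between genes within a group. In both E9.5 groups the genes ranked by mean TPM as Dusp6, Etv5, Dusp4, Spry2 and Spry1, then Il17rd, Fgf8 and Etv4 close together, then Spry4 and Etv1. The ranges of Il17rd, Fgf8 and Etv4 overlapped there, as did those of Etv5 and Dusp4, of Spry2 and Spry1 in Disp1_CS_INDEL, and of Dusp4 and Spry2 in Disp1_WT. In both E8.5 groups it was Dusp4, Dusp6, Etv5, Spry2, Etv4, Il17rd, Fgf8, Spry1, Spry4 and Etv1. Of the neighbours in that order, the ranges of Etv5 and Spry2 and of Spry4 and Etv1 were apart in both E8.5 groups, and those of Dusp4 and Dusp6 in Myo10_WT but not in Myo10_m1J.

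**Figure D1:**
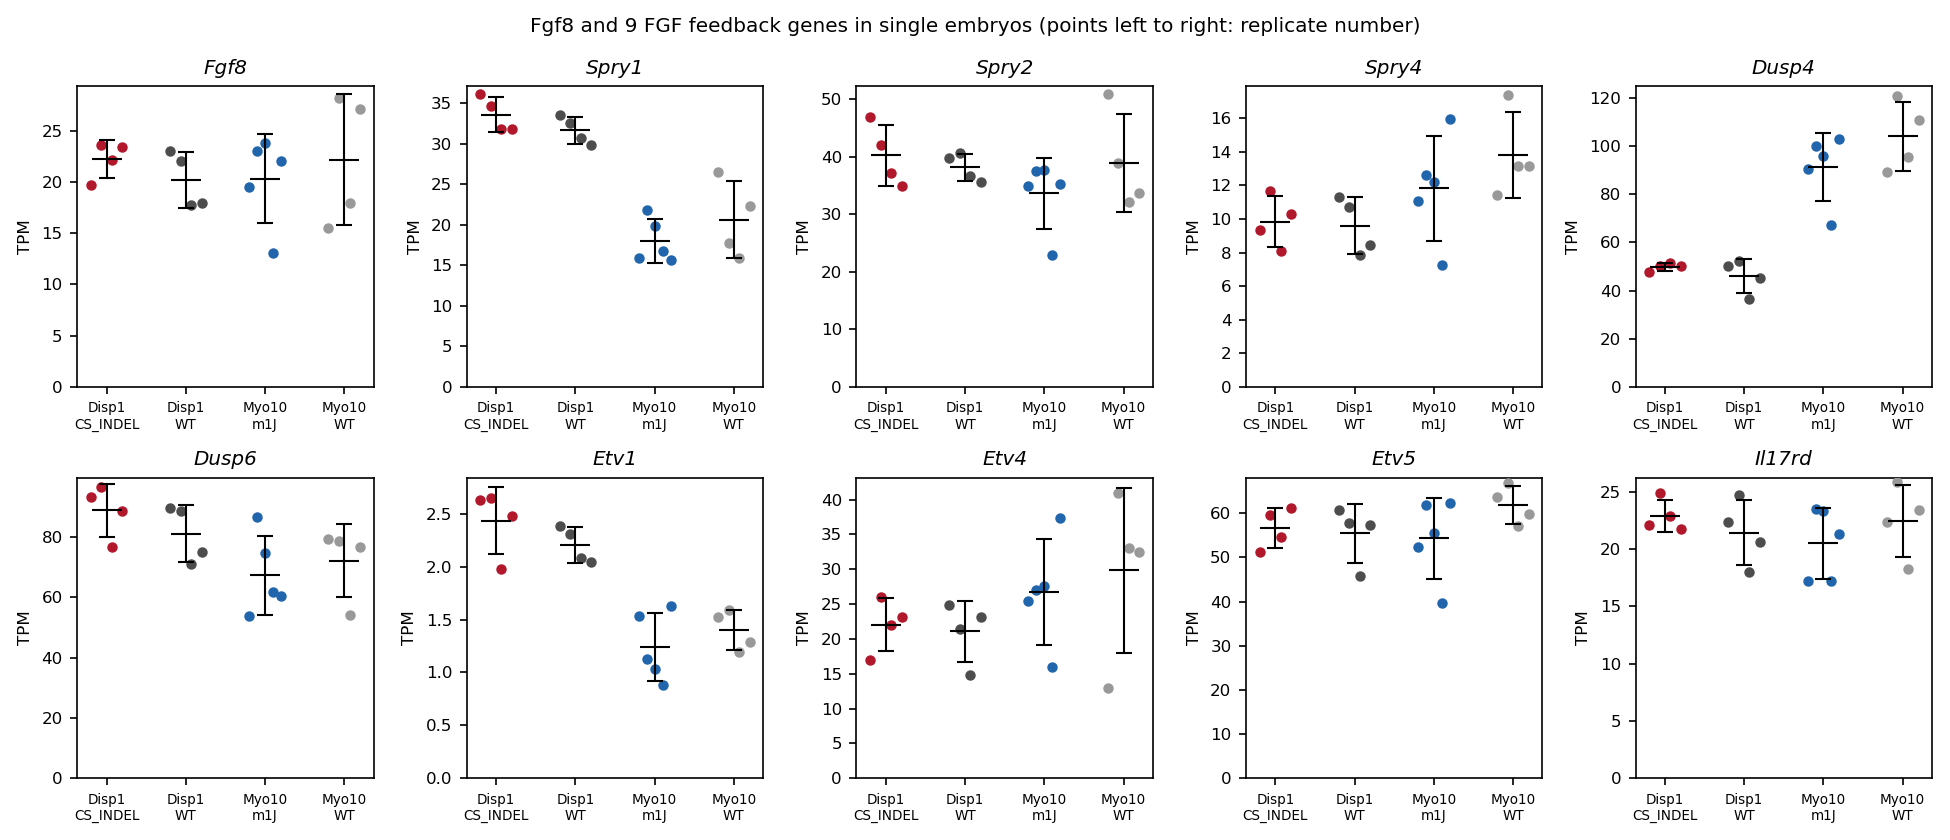
TPM of the 10 genes in each of the 17 embryos, with 1 panel per gene and groups along the horizontal axis. Points are embryos and bars the mean and SD (n = 4, or 5 for Myo10_m1J). Mutant and wild-type points overlap within each age in every panel, and Dusp4 is lower in all E9.5 than in all E8.5 embryos.

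The Disp1 comparison asks whether embryos with 2 altered Disp1 alleles differ in FGF output. None of the 10 genes passed in limma's moderated test with Benjamini-Hochberg adjustment over 13294 genes at 0.05. Of all genes tested 4 passed (0.0301%), and 301 had an unadjusted p under 0.05, none of them among the 10. No gene of the 10 had groups that did not overlap, against 1.55% of all genes. The log2 differences (Disp1_CS_INDEL minus Disp1_WT) ranged over 0.04 to 0.14 with a median of 0.09, beside a median of 0.01 over all genes. None of the 10 was below 0, where 43.7% of all genes were. Without Disp1_WT replicate 3 alone, Spry4 (−0.04), Etv4 (−0.08) and Etv5 (−0.05) were below 0. Fgf8 averaged 22.3 ± 1.81 TPM in Disp1_CS_INDEL and 20.2 ± 2.75 TPM in Disp1_WT (SD, n = 4 each), a log2 difference of 0.14 (SE 0.10, 95% confidence interval −0.08 to 0.36, limma adjusted p = 1.0). Dusp6 averaged 88.8 ± 8.73 TPM in Disp1_CS_INDEL and 81.1 ± 9.38 TPM in Disp1_WT, a log2 difference of 0.13 (interval −0.08 to 0.34). Etv4 had the widest interval, −0.29 to 0.43, and Spry1 the narrowest, −0.06 to 0.22. The 10 intervals together spanned −0.29 to 0.43. Without the 2 embryos low in tail bud transcripts the difference was −0.02 for Spry2, −0.02 for Spry4 and −0.01 for Etv5.

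The Myo10 comparison asks the same of embryos homozygous for Myo10m1J at E8.5. None of the 10 genes passed in limma's test, against 1 of 12560 genes (0.00796%), which was Myo10 itself, and 854 genes had an unadjusted p under 0.05. No gene of the 10 had groups that did not overlap, against 0.995% of all genes. In TPM all 10 log2 differences (Myo10_m1J minus Myo10_WT) were below 0, between −0.23 and −0.09, but so were those of 94% of all genes. The median of the 10 was −0.15 and that of all genes −0.16. With scaled TPM, which brought the median of all genes to 0.01, 5 of the 10 were below 0 and the range was −0.06 to 0.09. Fgf8 averaged 20.3 ± 4.35 TPM in Myo10_m1J (SD, n = 5) and 22.2 ± 6.42 TPM in Myo10_WT (SD, n = 4), a log2 difference of −0.11 (SE 0.20, limma adjusted p = 0.711), which was 0.07 (SE 0.20) with scaled TPM. Spry4 had the largest TPM difference, −0.23 (SE 0.19, interval −0.63 to 0.18), which was −0.06 with scaled TPM. Etv4 again had the widest interval, −0.72 to 0.54. Replicate 4 of Myo10_m1J, the library with 44.5% structural RNA, was the lowest of its group for Fgf8, Spry2, Spry4, Dusp4, Etv1, Etv4 and Etv5 in TPM. All of these genes except Etv1 were the lowest there in scaled TPM too. That library had the smallest size factor, 0.610, and the lowest tail bud marker sum of its group, 273 TPM. The share of all genes that were lowest there was not counted, and the causes were not tested.

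The effects of the 2 genotypes were compared directly in a fit of all 17 libraries. None of the 10 genes passed in limma's test, against 3 of 13910 genes (0.0216%), and 689 genes had an unadjusted p under 0.05. The Disp1 effect minus the Myo10 effect lay between 0.16 and 0.32 in log2(TPM + 1), beside a median of 0.16 over all genes. With scaled TPM it lay between −0.03 and 0.13, beside a median of 0.00 over all genes.

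**Figure D2:**
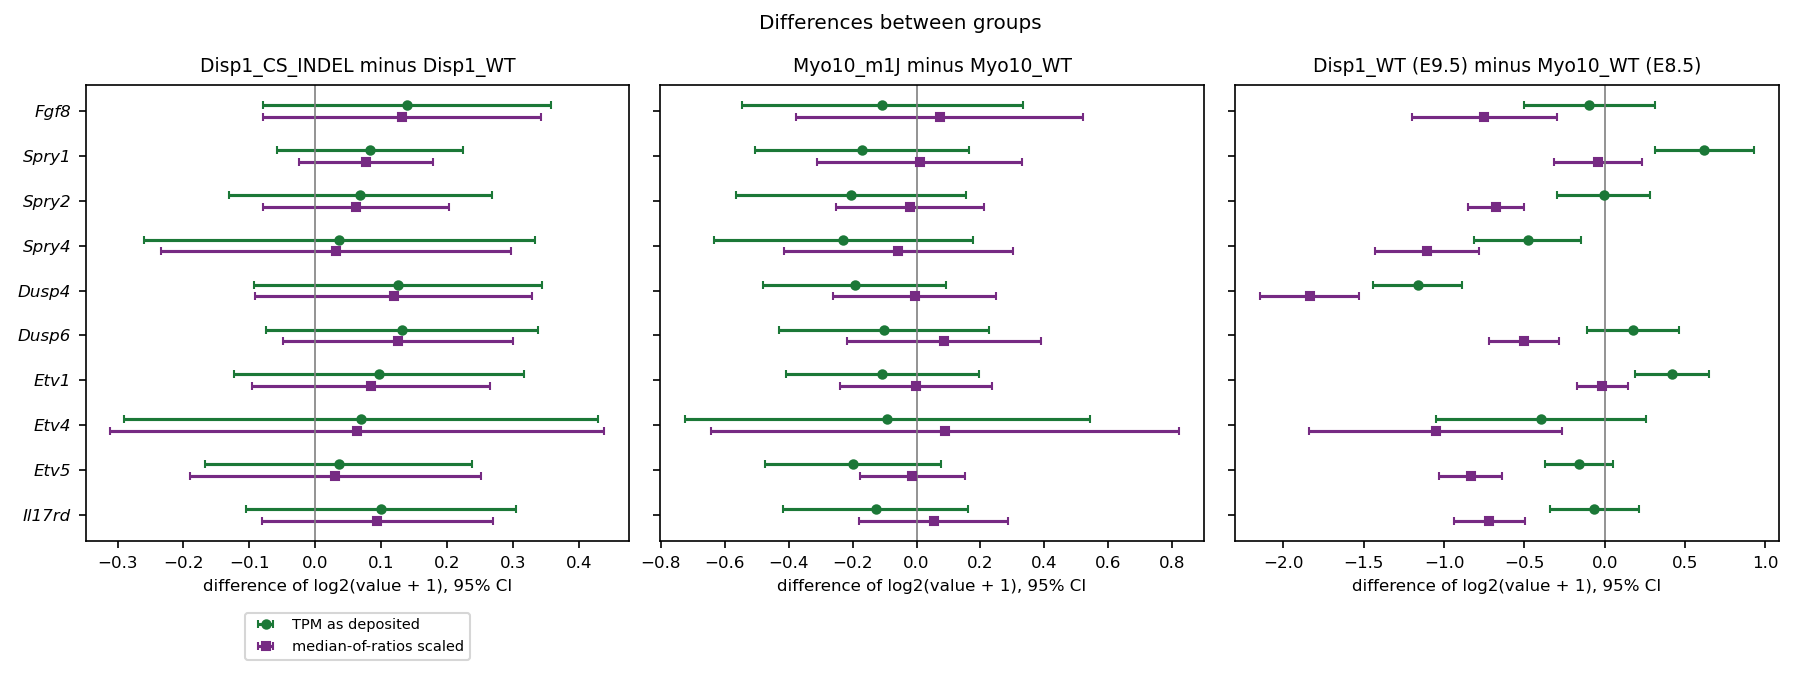
Log2 differences of the 10 genes with 95% confidence intervals, for the 2 genotype comparisons and the comparison of ages, each in TPM and in scaled TPM. Every genotype interval includes 0, while scaled TPM moves the ages' differences down to between −1.84 and −0.02.

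The wild types of the 2 experiments differ in age, and the E9.5 embryos of one are set here against the E8.5 embryos of the other. Age, experiment, the share of structural RNA and the yolk sac marker RNA given above cannot be told apart. Relative to the rest of the transcriptome, 8 of the 10 genes were lower at E9.5, and Spry1 and Etv1 did not pass. In TPM as deposited, 4 of the 10 genes passed in limma's test, Spry1 and Etv1 higher and Dusp4 and Spry4 lower, against 79.6% of 13397 genes, of which 69.4% of all were higher and 10.2% lower. The median log2 difference of all genes was 0.62 in TPM and 0.00 in scaled TPM, where 72.6% of 13256 genes passed, 36.2% higher and 36.4% lower. All 10 scaled differences were below 0, where 49.9% of all genes were. With so many genes passing, a pass alone sets none of the 10 apart from the rest of the table.

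Dusp4 fell in both scales and under every alternative tried. It averaged 46.1 ± 7.03 TPM in E9.5 Disp1_WT and 104 ± 14.3 TPM in E8.5 Myo10_WT (SD, n = 4 each), a log2 difference of −1.16 (SE 0.13, limma adjusted p = 6.55e-06). In scaled TPM the Dusp4 means were 34.4 ± 4.58 in Disp1_WT and 126 ± 21.2 in Myo10_WT, a log2 difference of −1.84 (SE 0.14). Spry4 fell by 0.48 in log2(TPM + 1) (SE 0.15, adjusted p = 0.0124) and by 1.11 in scaled TPM (SE 0.14). These 2 genes passed in each of 27 alternatives.

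For 6 genes the test was passed in scaled TPM and not in TPM. Etv5 averaged 41.5 ± 4.88 scaled TPM in Disp1_WT and 74.5 ± 4.83 in Myo10_WT, a log2 difference of −0.84 (SE 0.09) where TPM gave −0.16 (SE 0.10), which did not pass. Fgf8 averaged 15.1 ± 1.67 scaled TPM in Disp1_WT and 26.9 ± 8.24 in Myo10_WT, a log2 difference of −0.75 (SE 0.20, limma adjusted p = 0.00753) where TPM gave −0.10 (SE 0.18). The groups overlapped for Fgf8, since Myo10_WT replicate 1 was at 16.6 scaled TPM. Il17rd, Spry2 and Dusp6 had scaled log2 differences of −0.72 (SE 0.10), −0.68 (SE 0.08) and −0.50 (SE 0.10), where TPM gave −0.06, −0.01 and 0.18. Etv4 averaged 15.8 ± 3.35 scaled TPM in Disp1_WT and 36.6 ± 15.2 in Myo10_WT, a log2 difference of −1.05 (SE 0.35, limma adjusted p = 0.0214). The scaled Etv4 difference no longer passed, at adjusted p of 0.0544 to 0.0586, without Disp1_WT replicate 3 or without Myo10_WT replicate 2, 3 or 4. In TPM the Etv4 difference was −0.40 (SE 0.30), and −0.74 (limma adjusted p = 0.000981) without Myo10_WT replicate 1, the embryo low in tail bud transcripts.

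Spry1 and Etv1 were higher in TPM at E9.5, with log2 differences of 0.62 (SE 0.14, limma adjusted p = 0.00171) and 0.42 (SE 0.10, limma adjusted p = 0.00329), both no larger than the median of all genes. In scaled TPM they were at −0.04 (interval −0.31 to 0.23) and −0.02 (interval −0.17 to 0.14). With haemoglobin, mitochondrial and structural RNAs left out of the total they were at 0.09 (adjusted p = 0.578) and 0.08 (adjusted p = 0.488). In scaled TPM, groups did not overlap for Dusp4, Dusp6, Etv5, Il17rd, Spry2 and Spry4, 6 of 10, against 67.4% of all genes.

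Within groups, the embryos poor in tail bud transcripts were also low in part of the FGF genes. Fgf8, Dusp4, Etv4 and Etv5 each had their lowest TPM of the group in both Disp1_CS_INDEL replicate 1 and Disp1_WT replicate 3. This held for 4 of the 10 genes and for 3.27% of 13294 genes, and is a description of embryos singled out by their tail bud markers. In scaled TPM it held for these genes and Il17rd, and for 5.51% of all genes. Myo10_WT replicate 1 was the lowest of its group in TPM as well for Fgf8, Dusp4 and Etv4, a pattern shared by all 3 embryos in 1.08% of 12017 genes. In scaled TPM Etv5 and Il17rd also had this pattern, and the share of all genes was 3.11%. Among Fgf8, Dusp4 and Etv4, Etv4 differed most from the mean of the others of its group in log2(TPM + 1). The Etv4 difference was −0.46 in Disp1_CS_INDEL replicate 1, −0.60 in Disp1_WT replicate 3 and −1.37 in Myo10_WT replicate 1. Spry1 and Spry2 were the highest of their group in TPM in Disp1_CS_INDEL replicate 1 and in Myo10_WT replicate 1, but 50.8% of 12560 genes were the highest of their group in Myo10_WT replicate 1. In scaled TPM Spry1 was not the highest there, at 28.4 against 29.3 in replicate 4. In Disp1_WT replicate 3 neither gene was the highest or the lowest of its group in TPM, with Spry2 at 36.6 TPM and Spry1 at 30.7 TPM.

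Over all 17 embryos, deviations from the group means in scaled TPM were set beside the mean of 17 tail bud and presomitic mesoderm genes. Pearson's r was 0.896 for Dusp4, 0.849 for Etv4, 0.820 for Etv5, 0.688 for Fgf8, 0.646 for Spry4 and 0.582 for Il17rd. It was 0.108 for Etv1, 0.0880 for Dusp6, −0.314 for Spry1 and −0.393 for Spry2. Spearman's rho was lower, at 0.672 for Dusp4, 0.699 for Etv4, 0.642 for Etv5, 0.544 for Fgf8, 0.547 for Spry4 and 0.407 for Il17rd. The gene values and the tail bud mean come from the same libraries, and the 3 embryos named above lie at one end. The r of all genes with this mean was not set beside these values. The part of tissue composition in these values was not tested.

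**Figure D3:**
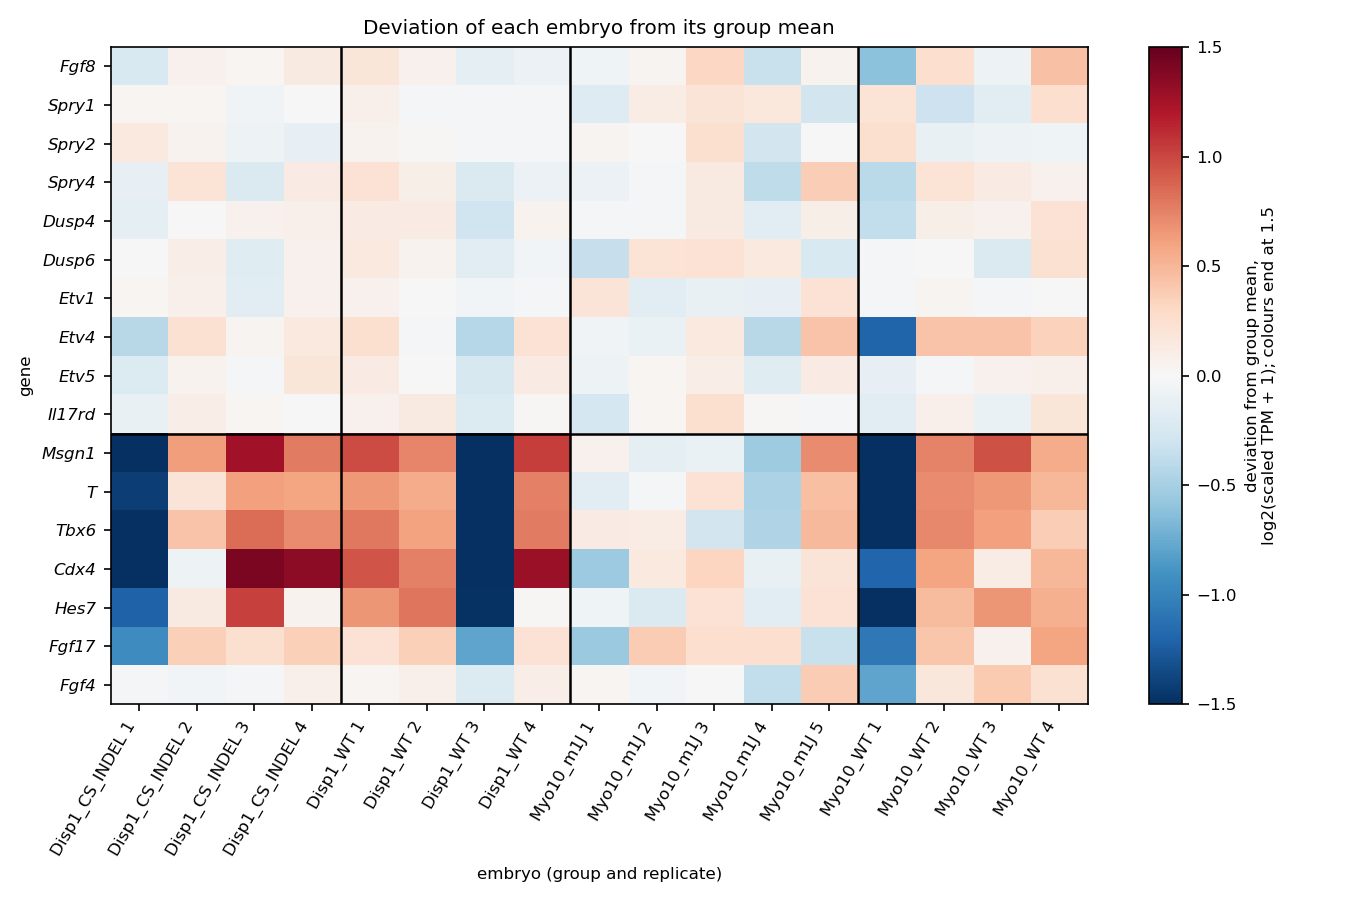
Deviation of each embryo from its group mean in log2(scaled TPM + 1), as colours that end at 1.5 either way, with the 17 embryos in columns and genes in rows. The 10 genes are above the line, and tail bud genes and 2 other Fgf genes are below it. Etv4 is the lowest of its group in the 3 embryos where Msgn1 and Fgf17 are the lowest of theirs, and in Myo10_m1J replicate 4. Among these embryos, Spry2 is the lowest of its group only in Disp1_WT replicate 3 and Myo10_m1J replicate 4. Dusp6 is the lowest of its group only in Disp1_WT replicate 3 among them.

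Among the 45 pairs of the 10 genes, r of the deviations in TPM ranged from −0.468 for Spry1 and Etv4 to 0.890 for Fgf8 and Dusp4, with 41 above 0. In scaled TPM it ranged from −0.530 for Spry1 and Etv1 to 0.892 for Dusp4 and Etv4, with 31 above 0. A factor common to a library enters all its TPM values and raises such r. Of 13900 genes, those most like Fgf8 in TPM over the 17 embryos were Kcnip2 (r of 0.901), Osr1 (0.882), Sdc1 (0.876), Slc25a33 (0.870) and Itgb5 (0.869), and Itgb5, Kcnip2 and Osr1 led in scaled TPM too. For the mean of the 9 response genes they were Ddx52 (0.918), Slc1a5, Polr2m, Agpat5 and Bmp4 in TPM and Smoc1 (0.861), 4933412E12Rik, Tceal6, Rarg and Slc1a5 in scaled TPM.

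The other genes of the pathway were read from the same fits. In the Disp1 comparison 8 of the other 21 Fgf genes, 8 of 10 receptor and co-receptor genes, all 20 genes of the cascade to ERK and all 18 further feedback and response genes in the table were tested, and none passed in limma's test. In the Myo10 comparison 9, 9, 20 and 15 of these genes were tested, and in the difference of effects 9, 9, 20 and 18, and none passed in either. Fgf15, a ligand of the neural tube, averaged 21.9 TPM in Disp1_CS_INDEL and 26.9 TPM in Disp1_WT, a log2 difference of −0.28 (SE 0.09) with an unadjusted p of 0.0117 and a limma adjusted p of 1.0. Between the ages in scaled TPM, Fgf18 (1.31, SE 0.24) and Fgf13 (0.72, SE 0.09), an intracellular FGF-homologous factor, were higher at E9.5, and Fgf3 (−1.82, SE 0.20), Fgf4 (−1.69, SE 0.23) and Fgf15 (−0.38, SE 0.10) lower. In TPM Fgf18, Fgf13 and Fgf10 were higher, Fgf3 and Fgf4 lower, and Fgf15 did not pass, with a difference of 0.28. Fgf4, a ligand of the primitive streak and tail bud, averaged 0.627 TPM in Disp1_WT and 3.20 TPM in Myo10_WT. Fgf17, which is close to Fgf8 in sequence, was the lowest of its group in the same 3 embryos as Etv4, at 7.18 TPM in Disp1_CS_INDEL replicate 1, 8.28 TPM in Disp1_WT replicate 3 and 4.96 TPM in Myo10_WT replicate 1.

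**Figure D4:**
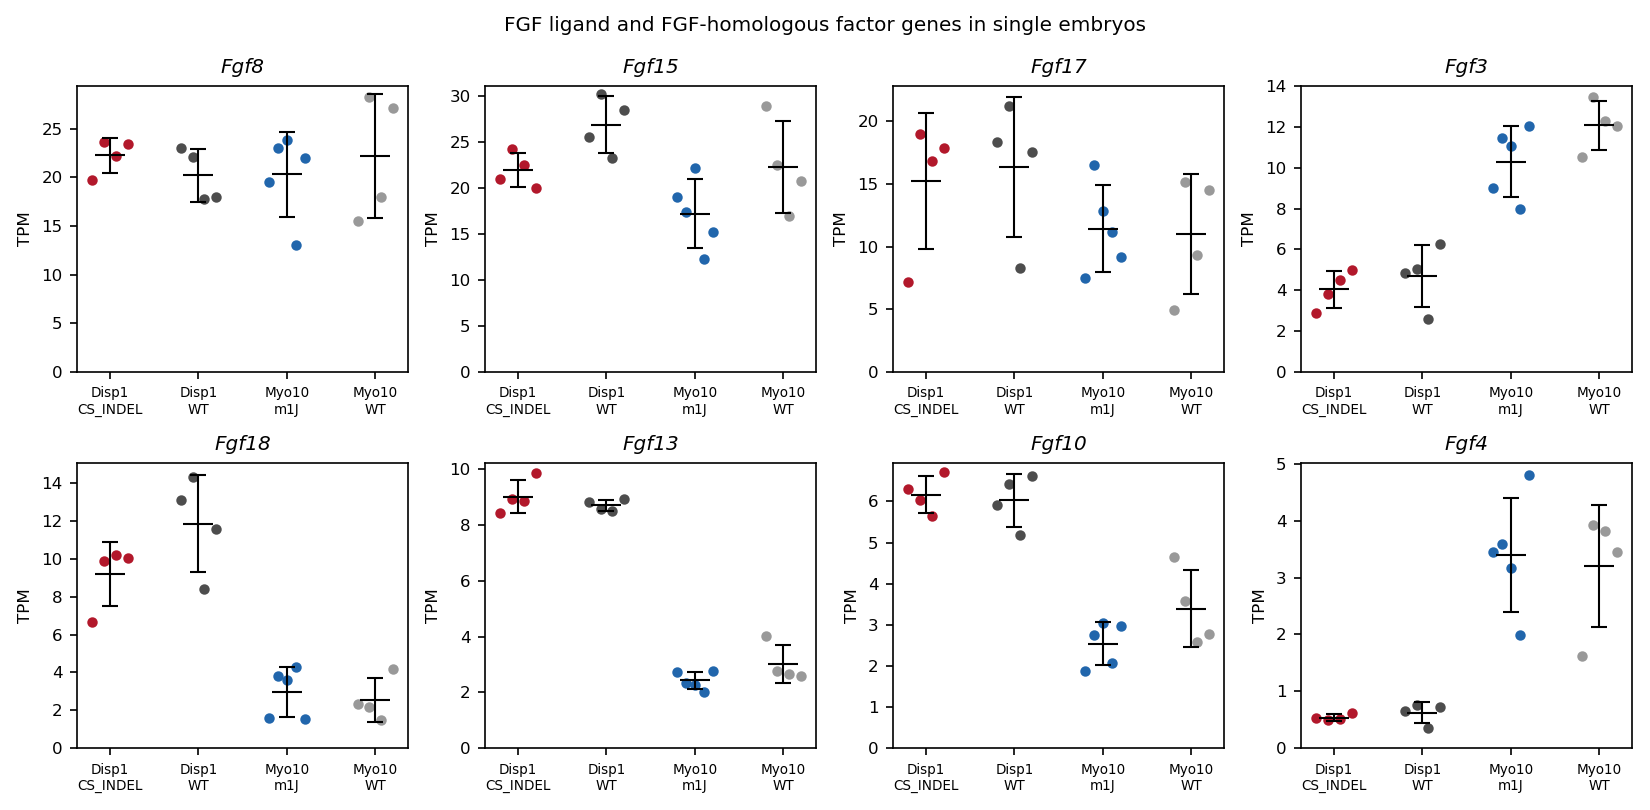
TPM of Fgf8 and 7 other Fgf genes in each embryo, with the mean and SD of each group. Fgf8 is level across groups in TPM, Fgf18 and Fgf13 are higher in all E9.5 embryos and Fgf4 and Fgf3 lower in all E9.5 than in all E8.5 embryos.

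Of the receptor genes, Fgfr1 was the most abundant of the 4 kinase receptors, at 57.7 TPM in Disp1_CS_INDEL, 55.6 TPM in Disp1_WT, 27.8 TPM in Myo10_m1J and 33.1 TPM in Myo10_WT. In scaled TPM between the ages its difference was 0.07 (SE 0.08) and did not pass. Fgfr4 (−1.19, SE 0.12), the co-receptor Klb (−2.80, SE 0.24), Flrt3 (−0.87, SE 0.10) and Fgfr2 (−0.35, SE 0.05) were lower at E9.5 and Flrt2 (0.44, SE 0.12) higher, while in TPM Fgfr2 was higher and Flrt3 did not pass. Of the 20 cascade genes 4 were higher and 8 lower in scaled TPM, against 18 higher and 1 lower in TPM, with Braf (−1.24, SE 0.09 in scaled TPM) the one lower in both. Of the 17 further feedback and response genes tested, 7 were higher and 6 lower in scaled TPM, and 9 higher and 2 lower in TPM. Shisa3 (2.56) and Phlda1 (1.34) were higher in both scales, and Dusp5 (−0.94), an ERK phosphatase, and Spred1 (−0.89), a Sprouty-related inhibitor, lower in both. The median scaled difference was −0.03 for the cascade and −0.02 for the further response genes, beside −0.73 for the 10 genes and 0.00 for all genes. For the tail bud and presomitic mesoderm markers it was −1.43, with 13 of 16 tested below 0. Of those markers 9 passed as lower and 2 as higher. The fall is therefore not particular to the 10 genes, and the part of tissue composition in it was not tested.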

How the data were processed

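RNA-seq of 17 single whole embryos was analysed. Per the labels' protocols, embryos were frozen while genotyped, RNA was purified together on micro columns, and libraries came from a TruSeq RNA kit. The authors deposited 1 table of TPM, each library summing to the same total. The build is GRCm39 (mm39) per the submitters' processing notes, with aligner, quantifier and annotation not given in the sources used here. Since TPM keeps no depth, it is unknown, and counting intervals cannot be given.

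Groups came from sample titles. After a filter (TPM of 1 or more in 4 or more libraries compared), log2(TPM + 1) was tested with limma 3.58.1 in R 4.3.3 (mean-variance trend, Benjamini-Hochberg over all genes tested, threshold 0.05), after a check on simulated data. A pseudocount of 1 understates folds of low genes. Each pair of groups was fitted alone, and the difference of effects over all 17. Scaled TPM was divided by median-of-ratios size factors from 15824 genes above 0 in every library. No 2 libraries of a group were duplicates, with correlations of 0.991 to 0.998. The 10 genes and the 12 lists were chosen with earlier results of these data known. All 10 genes were named in every embryo, with listed genes that passed, and the 5 genes most like Fgf8 and most like the mean of the response genes. Alternatives were other filters, pseudocounts and scalings, libraries left out, a replicate block and, added after seeing the data, embryos poor in tail bud transcripts left out.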

Additional observations from a re-analysis of the deposited data

Results flagged for a closer look

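Of 40 combinations of gene and group examined in TPM, 2 had 1 embryo far from the others of its group. Chance flags about 1 in 20, which is the rate seen here. Spry2 in Myo10_m1J was at 22.82 TPM in replicate 4, against 34.9 to 37.7 TPM in the other 4 embryos, and in scaled TPM at 37.4 against 45.3 to 53.7. That library had 44.5% structural RNA, and the part of this share in the value was not tested. Dusp6 in Myo10_WT was at 54.06 TPM in replicate 3, against 76.8 to 79.3 TPM in the other 3 embryos, and in scaled TPM at 73.8 against 84.9 to 101. The rule was applied to TPM only. In scaled TPM the gap of each of these embryos was a smaller part of its group's range.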

How the results depend on the processing

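None of the 10 genes passed in either genotype comparison, or in the difference between them, under any alternative tried. Genes passing in the Disp1 comparison numbered 4, against 7 with scaling and 2 each without a filter, above a mean of 5 TPM, in 1 fit of all 17 libraries, or with both embryos low in tail bud transcripts left out in TPM or scaled, and 1 to 3 with 1 embryo left out, each fewer than with all 8. In the Myo10 comparison they numbered 1, against 2 with no filter and 1 to 3 with 1 embryo left out, 3 without Myo10_WT replicate 4. Of the 10 genes, the count passing between ages was 4, against 8 with scaling, 8 with haemoglobin, mitochondrial and structural RNAs left out, 8 with scaling and both wild types low in tail bud transcripts left out, and 4 to 8 with 1 embryo left out over both scales.

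Embryos numbered 4 deviated together (r of 0.349 in the Disp1 comparison, 0.459 in the Myo10 comparison and 0.200 between ages), while r for numbers 1 to 3 was −0.273 to 0.139. The numbers are therefore not taken as pairs. With a replicate block 2 genes passed in the Disp1 and 46 in the Myo10 comparison, and of the 10 genes 0, 0 and 4 between ages.

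Signs turned in these cases. In the Disp1 comparison without both embryos low in tail bud transcripts, Spry2 was −0.02483, Spry4 −0.02375 and Etv5 −0.00576. With 1 embryo left out, Spry2 ranged from −0.006773 to 0.1318, Spry4 from −0.04412 to 0.1188, Etv4 from −0.08086 to 0.1853 and Etv5 from −0.05182 to 0.08186. In the Myo10 comparison scaling gave Fgf8 0.07304, Spry1 0.00944, Dusp6 0.08491, Etv4 0.08979 and Il17rd 0.05321. Etv4 was 0.006787 without structural and the other abundant RNAs. Scaling without Myo10_WT replicate 1 gave Spry1 0.07977, Spry2 0.05762 and Dusp6 0.07924. With 1 embryo left out, Fgf8 ranged from −0.2568 to 0.03527 and Etv4 from −0.435 to 0.09288.

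Between ages scaling gave Spry1 −0.0412, Dusp6 −0.5018 and Etv1 −0.01537, and leaving out the abundant RNAs gave Dusp6 −0.3713. A tail bud covariate gave Fgf8 0.03976 and Il17rd 2.173e-05. Without both low wild types Spry2 was 0.1439 and Il17rd 0.01348, and with scaling as well Dusp6 was −0.454 and Etv1 −0.009553. With 1 embryo left out, over both scales, Fgf8 ranged from −0.9531 to 0.03037, Spry1 from −0.1429 to 0.7427, Spry2 from −0.7112 to 0.1258, Dusp6 from −0.574 to 0.2357, Etv1 from −0.03781 to 0.4561 and Il17rd from −0.7725 to 0.01293. For the difference of effects scaling gave Etv4 −0.02575, scaling without both low E9.5 embryos gave Dusp6 −0.01349 and Etv4 −0.03096, and leaving out 1 embryo gave Etv4 −0.02304 to 0.5048. The causes were not tested. TPM keeps no depth, so what depth limits is unknown, and 4 or 5 embryos a group limit the precision.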
